A study of Mus musculus with 57 samples.

Results

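The genes described here encode 9 receptors through which macrophages take up lipids, lipoproteins and modified or glycosylated material: Cd36, Msr1, Marco, Colec12, Scarb1, Olr1, Lrp1, Vldlr and Mrc1. They were taken by symbol from the 24941 genes of the deposited mouse count table, with the transcript of the highest total count standing for each gene, and were followed through all 57 libraries. Blood Ly6C-high monocytes, Ly6C-high and Ly6C-low recruited liver macrophages (both CD11b-high), Kupffer-niche recruited macrophages (F4/80-high, Tim4-negative) and Kupffer cells (F4/80-high, Tim4-positive) were sorted from C57BL/6J mice on a NASH diet, a diet that causes fatty liver inflammation, with n = 2 libraries each. Healthy Kupffer cells of mice on the control diet (n = 2) completed this set of populations, for which the labels give no week of diet. A time course followed Kupffer cells of C57BL/6J mice, with n = 3 on control diet (week 0) and, on the NASH diet, n = 2 at week 1, n = 2 at week 4, n = 3 at week 10, n = 3 at week 20 and n = 4 at week 30. Kupffer-niche recruited macrophages of the LXR-floxed set were sorted after 20 weeks of NASH diet from mice in which the genes of LXR alpha and of LXR beta were both floxed, with 3 libraries carrying Clec4f-Cre by their label and 3 without Cre, so both groups carried the floxed alleles. Whole livers came from mice on the CDAHFD diet for 4 weeks, labelled positive (n = 12) or negative (n = 10) for Clec4f-Cre with DTR, a receptor for diphtheria toxin, and the labels do not say whether toxin was given. Clec4f is a lectin gene of Kupffer cells and cells that enter their niche, so the Cre acts where that gene is on. The labels give no age, and do not say that replicates are separate animals, so p-values measure the spread between these libraries, which may be technical.

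Scavenger receptors bind many unrelated ligands, among them oxidised and acetylated low-density lipoprotein, bacterial surface material and dying cells, and in the liver the macrophages that line the sinusoids use them to clear particles from portal blood. Cd36 takes up long-chain fatty acids and oxidised lipoproteins, and its gene is a known target of the lipid-sensing nuclear receptor PPAR gamma. Msr1 and Marco are class A receptors for modified lipoproteins and bacteria, and Colec12 is a class A receptor with a lectin domain. Scarb1 exchanges cholesterol with high-density lipoprotein, Olr1 binds oxidised low-density lipoprotein, Lrp1 and Vldlr belong to the low-density lipoprotein receptor family and bind apolipoprotein E-rich particles, and Mrc1 is the mannose receptor.

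Counts per library, in M (megacounts), ran from 10.48 to 26.97 M in the time course, from 12.37 to 22.71 M in the populations, from 5.39 to 9.94 M in whole liver and from 2.32 to 5.09 M in the LXR-floxed set, the shallowest. Markers of the labelled cells were present: the summed level of 7 Kupffer cell markers was 15400 to 37200 CPM (counts of a gene per M counts of its library) in Kupffer cells, 12700 to 15000 in Kupffer-niche recruited macrophages and 1.37 to 1.63 in blood monocytes. In the LXR-floxed set, however, Timd4, the gene of the Tim4 protein, was at 17.2, 304.4 and 94.3 CPM in the libraries labelled Cre-positive and 3.52, 5.71 and 16.4 CPM in the Cre-negative ones, although all were sorted as Tim4-negative. One healthy Kupffer library also stood apart for Marco, as given below.

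The promoters of Cd36 and Olr1, which were higher in Kupffer cells in 1 or more of the diet comparisons below, and of Marco and Mrc1, which were lower in 1 or more, are shown so that their letters can be compared. Each run holds the 250 bases before the gene's start, 5′ to 3′ on the gene's strand, from RefSeq for GRCm38.p6, where 6 of the 9 receptors had an entry. Lrp1 and Vldlr, which had an entry and were also called higher in such a comparison, were left out of this choice. The windows are chr5:17835897-17836146 (minus strand) for Cd36, chr6:129507166-129507415 (minus strand) for Olr1, chr1:120505025-120505274 (minus strand) for Marco and chr2:14229164-14229413 (plus strand) for Mrc1. Other Cd36 transcripts begin at chr5:17849792 and chr5:17888959, with total counts near that of the transcript kept (346281 and 345651 against 347329). The bases before those starts are not shown. Capitals mark matches, on either strand, to the nuclear receptor core AGGTCA, the AP-1 motif TGANTCA, the PU.1 core GAGGAA, the MAF core TGCTGA or the E-box CACGTG, and no matches overlapped.
Cd36: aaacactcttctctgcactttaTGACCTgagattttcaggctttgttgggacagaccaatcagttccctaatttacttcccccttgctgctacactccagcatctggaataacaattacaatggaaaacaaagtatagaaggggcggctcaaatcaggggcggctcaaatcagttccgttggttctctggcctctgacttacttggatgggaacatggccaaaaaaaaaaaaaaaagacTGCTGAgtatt
Olr1: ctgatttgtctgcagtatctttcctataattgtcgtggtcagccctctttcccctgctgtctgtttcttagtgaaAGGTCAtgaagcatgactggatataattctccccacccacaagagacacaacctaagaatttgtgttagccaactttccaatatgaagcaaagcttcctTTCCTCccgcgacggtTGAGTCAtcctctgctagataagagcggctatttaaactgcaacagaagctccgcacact
Marco: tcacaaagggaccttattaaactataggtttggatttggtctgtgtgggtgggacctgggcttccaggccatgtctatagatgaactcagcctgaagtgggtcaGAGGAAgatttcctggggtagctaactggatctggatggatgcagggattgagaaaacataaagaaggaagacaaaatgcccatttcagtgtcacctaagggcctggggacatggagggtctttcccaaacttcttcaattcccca
Mrc1: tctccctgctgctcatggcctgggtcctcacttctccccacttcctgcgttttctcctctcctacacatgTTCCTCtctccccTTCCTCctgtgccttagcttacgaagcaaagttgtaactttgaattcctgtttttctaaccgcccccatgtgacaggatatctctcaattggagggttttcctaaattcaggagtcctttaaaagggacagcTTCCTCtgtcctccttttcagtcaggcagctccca

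The nuclear receptor core occurred once in the Cd36 window and once in the Olr1 window, 228 and 175 bases before the start, and in neither the Marco nor the Mrc1 window. It was in 14% of the 32851 windows of the same length. The PU.1 core was in the Olr1, Marco and Mrc1 windows, 3 times in the last, and in 23.3% of all windows. The AP-1 motif was in the Olr1 window alone of the 4 (6.75% of all windows), the MAF core in the Cd36 window alone of the 4 (16.1%), and the E-box in none of the 4 (6.02%). A match is a description of letters and not of bound protein. The 4 windows were chosen and leave out Lrp1 and Vldlr, so the matches do not tell higher from lower receptors.

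Per unit of transcript length (deposited TPM), Lrp1 was the most abundant of the 9 receptors in 9 of the 14 groups of sorted cells, Marco in 3 and Mrc1 in 2. Lrp1 varied 3.53-fold between groups, from 289 ± 53.2 TPM (SD, n = 2) in Kupffer cells at week 1 to 1018 ± 113 TPM (n = 3) in Cre-negative macrophages, and 12 of its 13 neighbouring pairs in the order of group means had overlapping libraries. Scarb1, the high-density lipoprotein receptor, varied 3.39-fold, from 121 ± 0.739 TPM in Ly6C-low recruited macrophages to 411 ± 33.9 TPM in healthy Kupffer cells (n = 2 each), and 11 of its 13 neighbouring pairs overlapped. These levels are set side by side across sets of libraries, and the labels do not say whether the sets were prepared together.

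Mrc1 and Cd36 followed another order. Mrc1 stepped up from 3.24 ± 1.04 TPM in blood monocytes to 42.3 ± 1.47 in Ly6C-high recruited, 84.1 ± 9.46 in Ly6C-low recruited, 236 ± 0.539 in Kupffer-niche recruited macrophages and 279 ± 34.1 in NASH Kupffer cells (n = 2 each), and no library of one step reached the next. Its highest level was 653 ± 13.9 TPM in healthy Kupffer cells. The last step, from Kupffer-niche recruited macrophages to NASH Kupffer cells, was not called for Mrc1 in the edgeR test below, and separation of 2 libraries from 2 is no test. These steps are of the population set only. Kupffer-niche recruited macrophages of the LXR-floxed set were at 585 ± 52.3 TPM without Cre and 422 ± 154 TPM labelled Cre-positive (n = 3 each). Cd36 was lowest in blood monocytes, at 5.03 ± 2.39 TPM, followed by Ly6C-high recruited macrophages at 65.2 ± 14.9 (n = 2 each). It was highest in Kupffer cells at week 10, at 435 ± 20.0 TPM (n = 3), and these 3 groups were apart from their neighbours while the 11 groups in between overlapped in turn.

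Marco and Colec12 were high in the Tim4-positive gate and low in most of the other sorted cells. Marco was at 83.1 ± 39.8 TPM or more on average in each Kupffer cell group, at 9.90 ± 0.168 in Kupffer-niche recruited macrophages (n = 2) and at 0 counts in both blood libraries. Colec12 was at 20.5 ± 1.54 TPM or more on average in each Kupffer cell group and at 3.07 ± 1.39 or less in Kupffer-niche, Ly6C-high, Ly6C-low and blood cells (n = 2 each). The exception was the libraries labelled Cre-positive, sorted as Tim4-negative, with 127 ± 173 TPM of Marco and 32.6 ± 18.2 TPM of Colec12 (n = 3), against 8.73 ± 0.109 and 2.86 ± 0.842 TPM in the Cre-negative ones (n = 3). Msr1 ranged only from 67.3 ± 7.45 TPM in blood monocytes to 349 ± 130 TPM in Kupffer cells at week 0 (n = 3). Olr1 ran the other way, with 6.60 ± 2.30 TPM in Ly6C-high recruited macrophages, 5.65 ± 1.95 in blood monocytes and 0.132 ± 0.017 in Kupffer cells at week 1 (n = 2 each). Among Kupffer-niche recruited macrophages Olr1 was at 0.511 ± 0.0248 TPM in the population set (n = 2) and 5.14 ± 4.22 TPM in the Cre-negative libraries (n = 3). Vldlr was near absent from sorted cells, its highest group mean being 0.242 ± 0.0644 TPM in Ly6C-high recruited macrophages.

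**Figure D1:**
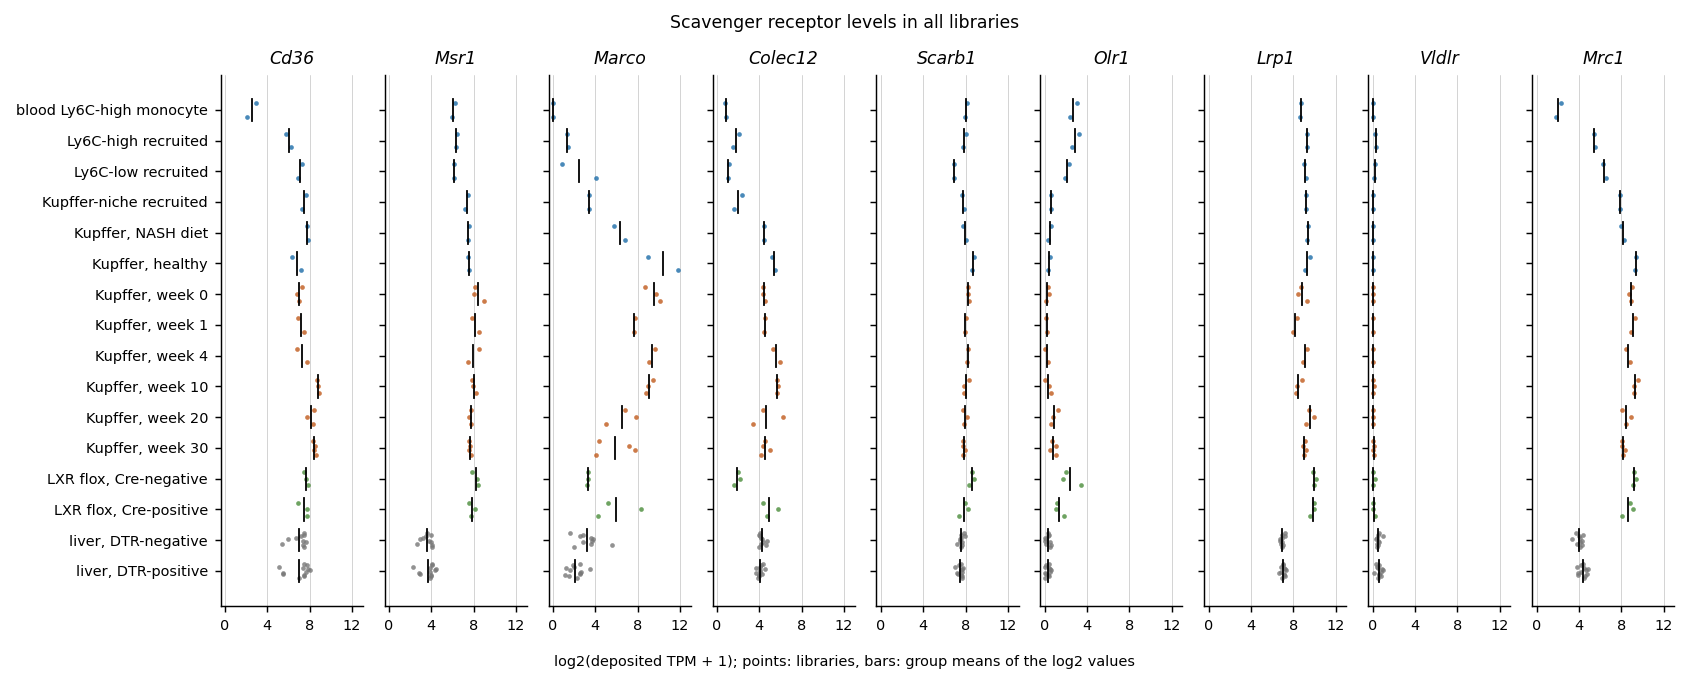
Levels of the 9 receptors in all 57 libraries, as log2(deposited TPM + 1), with 1 point per library and a bar at each group's mean of the log2 values. Among the sorted cells Mrc1 and Cd36 are lowest in blood monocytes, Marco and Colec12 are high in Kupffer cells and in the libraries labelled Cre-positive, and Lrp1 is lower in whole livers (100.5 to 153.8 TPM) than in any sorted library.

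Kupffer cells from NASH livers were compared with healthy ones to see what the diet does to the resident cell. In this comparison Marco, Mrc1 and Scarb1 were lower and Cd36 and Vldlr were higher, so 5 of the 9 receptors were called (edgeR quasi-likelihood test, Benjamini-Hochberg adjusted p under 0.05), where 20.7% of all 14407 genes tested were called. Mrc1 was at 1397 and 1227 CPM in the NASH libraries and 2660 and 2669 CPM in the healthy ones. The groups did not overlap, and the log2 difference was -1.02 ± 0.17 (SE), adjusted p = 0.00261. Cd36 was at 682.5 and 666.9 CPM in NASH and 409.4 and 214.5 CPM in healthy libraries. Both NASH values lay above both healthy ones, with a log2 difference of 1.11 ± 0.33 and adjusted p = 0.0357.

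Marco showed the largest change of a receptor with counts in both groups, at 185.0 and 95.6 CPM in NASH against 5441 and 748.6 CPM in healthy Kupffer cells. The first healthy library thus held over 7 times the Marco level of the second, as its 86215 counts against 10034 also show. The log2 difference was -4.46 ± 1.03, adjusted p = 0.0151, and without that library it was -2.41 with adjusted p = 0.0804. Scarb1 fell less, from 758.9 and 830.2 CPM to 585.8 and 509.4 CPM (log2 difference -0.54 ± 0.14, adjusted p = 0.0216). Vldlr had 0 counts in both healthy libraries and 3 and 5 counts in the NASH ones. Its NASH mean was 2.92-fold above a floor of 3 counts over the healthy group. Vldlr passed the filter on low counts only through Ly6C-high (25 and 19 counts) and Ly6C-low recruited macrophages (16 and 17), which are not in this comparison.

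The other 4 receptors were not called. Colec12 was at 61.6 and 65.0 CPM in NASH and 114.8 and 92.9 CPM in healthy libraries, without overlap, with a log2 difference of -0.71 ± 0.26 and adjusted p = 0.0727. Other settings called it lower at -0.88 to -0.69: no filter on low counts (adjusted p = 0.0198), the replicate block (0.0419), DESeq2 (0.0495), limma on log2(TPM + 1) (0.0254) and only these 4 libraries in the fit (0.0241). Msr1 differed by 0.17 ± 0.13, Lrp1 by 0.20 ± 0.16 and Olr1 by 0.62 ± 0.53 on the log2 scale. With 2 libraries a group, only the Mrc1 call held when each library was left out in turn (adjusted p up to 0.0303). The Cd36 call ended without healthy library 2 (0.72, adjusted p = 0.209), NASH library 1 (1.10, 0.104) or NASH library 2 (1.10, 0.143), and with DESeq2 (1.10, 0.0517) or limma on log2(TPM + 1) (0.97, 0.056). The Marco call ended also without NASH library 1 (-5.02, 0.0572) or 2 (-4.10, 0.124), the Scarb1 call without healthy library 2 (-0.47, 0.1) or NASH library 2 (-0.47, 0.143) or with only these 4 libraries in the fit (-0.51, 0.0522), and the Vldlr call without any one of the 4 (adjusted p 0.075 to 0.161). Without healthy library 2, Marco differed by -5.28. Timd4, the gate's own gene, was lower as well, at 163.9 and 263.2 CPM in NASH against 759.0 and 1007 CPM in healthy Kupffer cells (-2.05 ± 0.44, adjusted p = 0.0109). Of 7 Kupffer cell markers, 3 were lower (summed 23400 to 26500 against 25800 to 28300 CPM, none at 0), and their part in the Marco and Colec12 values was not tested. Of 12 sinusoidal endothelial markers, cells that also make Mrc1, 8 were lower and 1 higher in NASH Kupffer cells (summed 875 to 880 against 1340 to 1350 CPM, none at 0), and their part in the Mrc1 difference was not tested.

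The time course followed the same gate from 0 to 30 weeks of diet. Cd36 was the receptor called at most times: it was not called at week 1 (log2 difference 0.35 ± 0.26, adjusted p = 0.394) or week 4, and was higher than at week 0 at weeks 10, 20 and 30. Its levels were 271.7, 272.9 and 380.5 CPM at week 0, 467.6 and 320.8 at week 1, and 568.1 and 282.3 at week 4, so the early weeks overlapped week 0. All libraries from week 10 on exceeded those of week 0, with 1067, 1028 and 1054 CPM at week 10, 872.0, 581.6 and 947.3 at week 20, and 1106, 973.6, 1079 and 916.9 at week 30. The log2 differences were 1.77 ± 0.24 (adjusted p = 0.000217), 1.38 ± 0.24 (adjusted p = 0.000385) and 1.72 ± 0.23 (adjusted p = 3.97e-05), and each call held without any one library.

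Markers of other liver cells were also higher than at week 0 in these sorted cells. The summed level of 10 hepatocyte markers was 45.7 to 148 CPM at week 0, 3340 to 5250 at week 1, 1760 to 2040 at week 4, 589 to 2890 at week 10, 160 to 882 at week 20 and 261 to 954 at week 30, with 10, 9, 10, 7 and 7 of the 10 called higher. The summed level of 10 stellate cell markers was 44.0 to 71.5 CPM at week 0, 118 to 133 at week 1, 97.4 to 170 at week 4, 232 to 408 at week 10, 99.0 to 325 at week 20 and 135 to 356 at week 30, with 5, 4, 7, 6 and 7 of the 10 called higher. The stellate cell sum was thus highest at week 10 and the hepatocyte sum at week 1. No marker of either list was at 0 in any of these groups, and their part in the Cd36 result was not tested.

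Marco, a receptor of resident macrophages, was lower at weeks 20 and 30. It was at 1343, 1133 and 572.0 CPM at week 0, 288.5 and 323.4 at week 1, 763.9 and 1132 at week 4, and 547.9, 664.3 and 950.0 at week 10. At week 20 it was at 46.1, 330.4 and 177.8 CPM and at week 30 at 25.3, 342.0, 224.1 and 31.0 CPM, below each week 0 library but spread over more than 10-fold within week 30. The log2 differences were -2.46 ± 0.81 (adjusted p = 0.0267) and -2.71 ± 0.73 (adjusted p = 0.0104). The week 20 call ended without week 0 library 1 (-2.20, adjusted p = 0.0649) or 2 (-2.37, 0.0588), or week 20 library 1 (-2.01, 0.0862) or 3 (-2.45, 0.0613), and without library 2 the difference was -3.18. The week 30 call held without any one library, and was -3.43 without library 2. At week 1 Marco was lower in both libraries than in each week 0 library but was not called (-1.73 ± 0.91, adjusted p = 0.223), except with only the libraries of both groups in the fit (adjusted p = 0.0171). Other Kupffer cell markers moved with it: 6 of 7 were lower at week 20 and 5 of 7 at week 30, among them Timd4, the gate's own gene, by -2.42 ± 0.41 at week 30 (adjusted p = 0.000386). Their part in the Marco result was not tested.

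Olr1 rose late, and Lrp1 was called higher at week 20. Olr1 stayed at 0 to 1.10 CPM through week 10, and was at 1.40, 1.89 and 4.14 CPM at week 20 and at 3.06, 1.12, 3.27 and 1.90 CPM at week 30. These low levels were above all week 0 libraries (0.136, 0.820 and 0.520 CPM), with log2 differences of 2.34 ± 0.82 (adjusted p = 0.0369) and 2.26 ± 0.79 (adjusted p = 0.0399). The week 20 call ended without week 0 library 1 (1.87, adjusted p = 0.12) or 3 (2.40, 0.0852) or week 20 library 3 (1.75, 0.134), and the value was 2.93 without week 0 library 2. The week 30 call ended without week 0 library 1 (1.79, adjusted p = 0.142) or 3 (2.32, 0.0969) or week 30 library 1 (2.11, 0.0819), 3 (2.06, 0.0874) or 4 (2.35, 0.0572), and the value was 2.85 without week 0 library 2. Lrp1 was at 5559, 3454 and 4228 CPM at week 0 and 6833, 11050 and 8609 at week 20, a log2 difference of 1.00 ± 0.22 (adjusted p = 0.00291) that held without any one library. Its course was uneven, with 2875 and 3814 CPM at week 1, 5513 and 6569 at week 4, and 2916, 3178 and 4744 at week 10. Lrp1 was not called at these 3 weeks. At week 30, at 6179, 7205, 5850 and 6320 CPM, it was above each week 0 library but was not called (0.53 ± 0.21, adjusted p = 0.0653). It was called with DESeq2 (0.54, adjusted p = 0.0253), with only the libraries of both groups (0.52, 0.0397) and without week 0 library 1 (0.73, 0.0257).

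Msr1, Colec12, Scarb1 and Mrc1 were called at no week against week 0. Colec12 came nearest at week 10, with 107.6, 116.6 and 120.2 CPM against 45.8, 43.7 and 46.2 CPM at week 0 (1.34 ± 0.46, adjusted p = 0.0527), and was called there without a filter (1.33, adjusted p = 0.0295), with DESeq2 (1.35, 0.0476) and with only the libraries of both groups (1.33, 0.000513). All 3 week 10 libraries and both week 4 libraries (154.4 and 92.2 CPM) lay above week 0, while week 20 held the lowest and the highest Colec12 of the whole course, 26.0 and 188.4 CPM. With only the libraries of both groups Colec12 was called at week 4 (1.44, adjusted p = 0.00832), and without week 20 library 1 at week 20 (1.41, 0.00904). Mrc1 differed by -0.40 ± 0.19 at week 30 (adjusted p = 0.123), where it was at 1238, 1479, 1209 and 1138 CPM against 1590, 1482 and 1947 at week 0. It was called lower there with only the libraries of both groups (-0.41, adjusted p = 0.0396) and with limma on log2(TPM + 1) (-0.71, 0.00764), which also called Msr1 (-0.73, 0.026) and Scarb1 (-0.44, 0.0133). Without week 10 library 3 Scarb1 was called at week 10 (-0.40, adjusted p = 0.0357). Vldlr had too few reads to be tested, with 2 counts over the week 0 libraries and 32 over those of week 30, a ratio of 11.7 with a 95% exact interval of 2.98 to 101 that covers counting error only.

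Counted together, 0 of the 8 receptors tested were called at weeks 1 and 4, 1 at week 10, 4 at week 20 and 3 at week 30, where 16.0%, 8.54%, 19.1%, 34.7% and 30.5% of all genes were called. Within the 14 libraries on the diet, a slope per doubling of weeks was called for Cd36 (0.29 ± 0.07, adjusted p = 0.00561) and Olr1 (0.65 ± 0.18, adjusted p = 0.0163), both upward and both in each fit with 1 library left out. This is 2 of 8 receptors, where 22.8% of all genes had a called slope. DESeq2 also called Lrp1 (0.21, adjusted p = 0.0172) and Mrc1 (-0.15, 0.0461). These comparisons share the week 0 libraries or the diet libraries and are not independent.

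**Figure D2:**
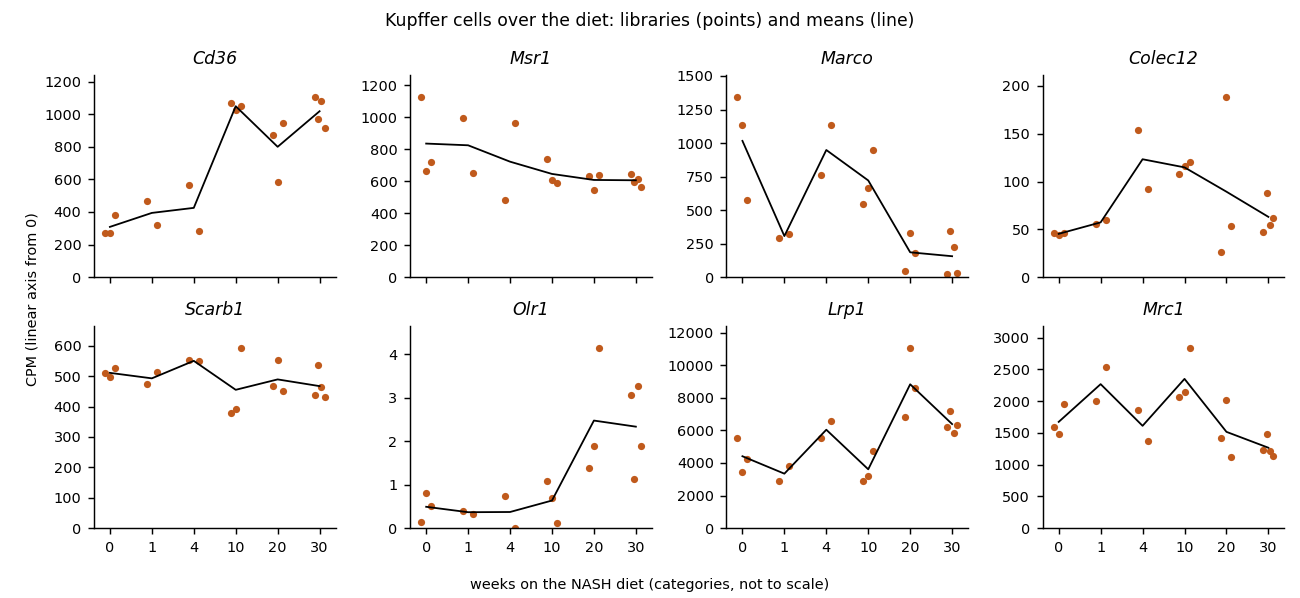
CPM of 8 receptors in Kupffer cells by weeks on the NASH diet, on linear axes from 0, with 1 point per library and a line through the means. Cd36 lies between 916.9 and 1106 CPM at week 30 against 271.7 to 380.5 at week 0, and Marco falls to between 25.3 and 342.0 CPM.

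Recruited macrophages that occupy the Kupffer niche were compared with the NASH Kupffer cells beside them. Of the 9 receptors only Colec12 was called, where 0.534% of all genes were called. It was at 5.63 and 10.97 CPM in Kupffer-niche recruited macrophages and at 61.6 and 65.0 CPM in NASH Kupffer cells. The groups lay far apart, with a log2 difference of -2.94 ± 0.29 and adjusted p = 0.00117, and the call held without any one library (-3.49 to -2.54). Marco was at 15.6 and 15.2 CPM against 185.0 and 95.6, also without overlap, but missed the threshold (-3.18 ± 1.01, adjusted p = 0.298). It passed at the same -3.18 without a filter on low counts (adjusted p = 0.00422) and with only these 4 libraries in the fit (0.0367). The other 7 differed by -0.49 to 0.21 on the log2 scale, and the median over the 9 receptors was -0.37 against 0.01 over all genes. Timd4, which defines the gate, differed by -4.55 ± 0.51, and 3 of the 7 Kupffer cell markers were lower (summed 12700 to 15000 against 23400 to 26500 CPM), whose part in the Colec12 difference was not tested.

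Ly6C-low recruited macrophages, which are CD11b-high and lie outside the F4/80-high gate, differed from Kupffer-niche recruited macrophages in 6 of the 9 receptors, where 33.3% of all genes were called. Msr1 was at 166.7 and 167.3 CPM against 439.7 and 524.3 (log2 difference -1.53 ± 0.13, adjusted p = 1.13e-05). Mrc1 was at 313.9 and 263.0 CPM against 1016 and 1020 (-1.82 ± 0.18, adjusted p = 2.58e-05). The groups did not overlap for either receptor, and Msr1 was 2.89-fold and Mrc1 3.53-fold lower. Scarb1 (-1.20 ± 0.14) and Colec12 (-1.79 ± 0.33) were lower as well. Olr1 was higher, at 6.46 and 8.89 CPM against 1.43 and 1.54 (2.36 ± 0.41, adjusted p = 0.00128), and these 5 calls held without any one library. The Vldlr call (1.96 ± 0.66, adjusted p = 0.048) rested on 33 and 7 counts over the groups and ended without any one of the 4 libraries (1.58 to 2.31). Vldlr had passed the filter on low counts only through the Ly6C-high and Ly6C-low groups, where it is highest. Cd36 and Lrp1, not called, were called lower without a filter (-0.72, adjusted p = 0.0208, and -0.43, 0.0296) and with only these 4 libraries (-0.71, 0.0291, and -0.42, 0.0271), and Lrp1 with DESeq2 (-0.39, 0.0377). Beside these differences, 6 of the 7 Kupffer cell markers were lower (summed 287 to 462 against 12700 to 15000 CPM), 10 of 12 sinusoidal endothelial markers were higher (1010 to 1080 against 628 to 659 CPM), and 4 of 7 dendritic cell markers were higher and 2 lower (401 to 418 against 97.1 to 100 CPM), and their part was not tested.

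Between the recruited macrophages outside the niche, 5 receptors were called, where 25.7% of all genes were called. Ly6C-low cells had more Mrc1 than Ly6C-high cells (313.9 and 263.0 against 152.2 and 148.4 CPM, log2 difference 0.94 ± 0.17, adjusted p = 0.00305) and less Scarb1 (198.1 and 196.3 against 358.0 and 443.7 CPM, -1.02 ± 0.14, adjusted p = 0.000517). These calls held without any one library. Cd36 was higher (265.7 and 351.3 against 177.5 and 131.1 CPM, 1.00 ± 0.33, adjusted p = 0.0446), but its call ended without any one of the 4 libraries (0.79 to 1.24, adjusted p 0.0662 to 0.254) and with RLE size factors (0.97, adjusted p = 0.053) or DESeq2 (0.98, adjusted p = 0.0877). Colec12 was lower (2.24 and 2.54 against 4.24 and 7.17 CPM, -1.27 ± 0.33), a call that ended without Ly6C-high library 2 (-0.84) or Ly6C-low library 1 (-1.17) or with only these 4 libraries in the fit (-1.24, adjusted p = 0.0553). Olr1 was lower too (6.46 and 8.89 against 11.8 and 19.9 CPM, -1.05 ± 0.35), a call that ended without Ly6C-high library 2 (-0.62) or Ly6C-low library 1 (-0.83) or 2 (-1.28) or with only these 4 libraries in the fit (-1.04, adjusted p = 0.0555). All 10 hepatocyte markers and 7 of 12 sinusoidal endothelial markers were lower in the Ly6C-low cells (hepatocyte sum 162 to 373 against 1520 to 4170 CPM), 5 of 7 dendritic cell markers were higher (401 to 418 against 100 to 115 CPM), and their part was not tested. Marco differed within the Ly6C-low group itself, at 19.9 and 1.08 CPM, and was called higher than in Ly6C-high cells only without a filter (2.42, adjusted p = 0.0201) or without Ly6C-low library 2 (3.27, 0.0448). Msr1 was called lower only with the transcript of highest TPM (-0.41, adjusted p = 0.0466).

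**Figure D3:**
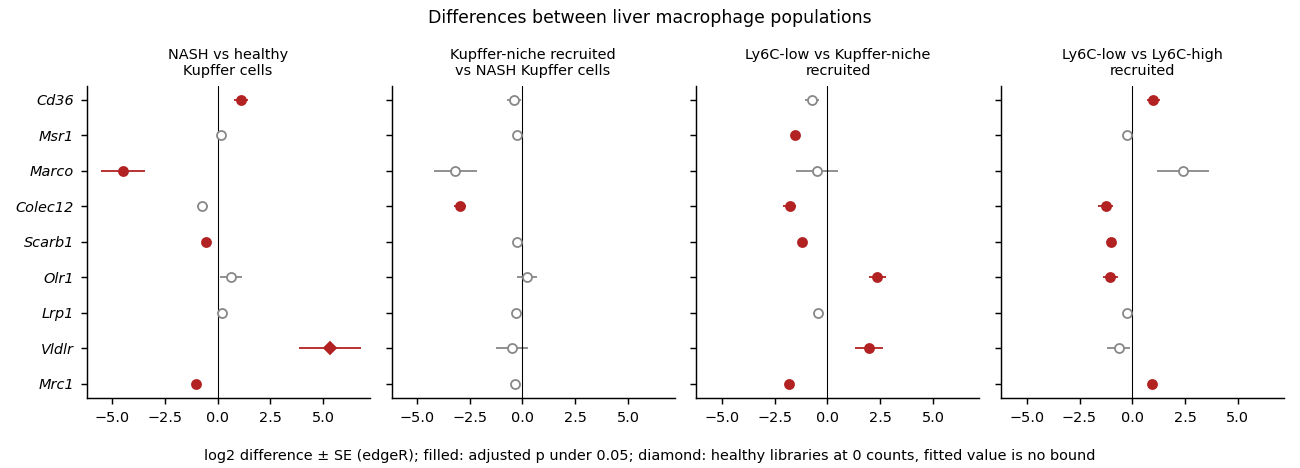
Log2 differences with SE (edgeR) of the 9 receptors in 4 comparisons of liver macrophage populations, filled where adjusted p was under 0.05, with a diamond where the healthy group had 0 counts and the fitted value is no bound. Colec12 alone is called between Kupffer-niche recruited macrophages and NASH Kupffer cells, at -2.94.

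Recruited macrophages were also compared with blood monocytes, the circulating cells of the same diet. In Ly6C-high recruited macrophages 5 of the 9 receptors were higher and 0 lower. Of all genes 48.6% were called, 56.2% of them higher, so the number of receptors called lay near the share of all genes. Cd36 was at 177.5 and 131.1 CPM against 8.20 and 16.4 (log2 difference 3.68 ± 0.38), and Mrc1 at 152.2 and 148.4 CPM against 9.20 and 14.6 (3.68 ± 0.20), each over 12-fold. Colec12 (1.61 ± 0.35), Lrp1 (0.53 ± 0.16) and Vldlr were also higher. Vldlr had 44 counts over the group against 0, with a mean 15.0-fold above the floor of the blood group. It had passed the filter on low counts only through the Ly6C-high and Ly6C-low groups. The Lrp1 call ended without blood library 1 (0.47, adjusted p = 0.0795) or Ly6C-high library 1 (0.52, 0.0684) or 2 (0.53, 0.0563). Marco, at 68 counts against 0 (a mean 23.0-fold above the floor), was not called (adjusted p = 0.146). It was called without a filter (adjusted p = 0.0173), with the replicate block (0.0409) or the crossed block (0.0481), with DESeq2 (0.000566) and with only these 4 libraries (0.00048).

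In Kupffer-niche recruited macrophages 7 receptors were higher than in blood monocytes and 1 lower, where 60.4% of all genes were called, 56.2% of them higher. The rises were 6.44 ± 0.22 for Mrc1, 5.40 ± 0.40 for Cd36, 2.13 ± 0.35 for Colec12, 1.51 ± 0.13 for Msr1 and 0.71 ± 0.16 for Lrp1 on the log2 scale, and these calls held without any one library. The Kupffer-niche means of Marco and Vldlr were 172-fold and 2.41-fold above the floor of the blood group. Vldlr had 7 counts over the Kupffer-niche libraries, and passed the filter on low counts only through the Ly6C-high and Ly6C-low groups, which are not compared here. The Marco call ended without blood library 1 (adjusted p = 0.0567), and the Vldlr call without blood library 1 (0.0858) or Kupffer-niche library 2 (0.0701). Olr1 alone was lower, at 1.43 and 1.54 against 10.6 and 17.3 CPM (-3.22 ± 0.41, adjusted p = 5.05e-05), and Scarb1 differed by -0.03 ± 0.14. Both comparisons share the blood libraries. In these, 9 of 10 hepatocyte markers, 7 of 10 stellate cell markers and 5 of 12 sinusoidal endothelial markers were at 0, whereas none was at 0 in the liver macrophages, where all 10 hepatocyte and all 10 stellate cell markers were called higher in each comparison, and their part was not tested.

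LXR alpha and beta, encoded by Nr1h3 and Nr1h2, are sterol-sensing nuclear receptors, and the floxed set was sorted to ask what their loss does in Kupffer-niche recruited macrophages. The targeted genes did not show it: Nr1h3 was at 186.9, 451.1 and 298.5 CPM in the libraries labelled Cre-positive and 246.6, 282.1 and 306.8 CPM in the Cre-negative ones, and Nr1h2 at 61.1, 82.5 and 64.5 against 51.1, 33.3 and 36.6 CPM. Neither was called, and the labels do not say which exons are floxed, so counts over a whole transcript check the deletion only in part. Colec12 was the only receptor called, where 0.209% of all genes (24) were called. It was at 41.4, 97.3 and 33.7 CPM in the libraries labelled Cre-positive and 3.52, 6.42 and 5.11 CPM in the Cre-negative ones. All 3 lay above all of the others, with a log2 difference of 3.49 ± 0.45 and adjusted p = 0.016. The call ended without Cre-negative library 1 (3.32, adjusted p = 0.118) or 3 (3.50, 0.129), and with limma on log2(TPM + 1) (3.02, adjusted p = 0.0523). Without Cre-positive library 2 the difference was 2.88 (adjusted p = 0.00737).

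Marco moved in the same direction without passing the test, at 17.2, 342.5 and 35.8 CPM against 8.81, 8.80 and 8.88 CPM (3.91 ± 0.95, adjusted p = 0.15). It passed without a filter (3.93, adjusted p = 2.73e-07), with DESeq2 (3.90, 0.0464) and without Cre-positive library 1 (4.43, 0.0439). Cre-positive library 2 held the highest Marco, Colec12, Timd4 (304.4 CPM) and Clec4f (2806 CPM) of the set, and without it the Marco difference was 1.61 (adjusted p = 0.121). Timd4 is the gene on which these cells were sorted as negative, and the summed Kupffer cell markers ran from 1360 to 9360 CPM in the libraries labelled Cre-positive and from 2880 to 3740 CPM in the Cre-negative ones, with no marker at 0. The 6 Ly6C-high monocyte markers summed to 175 to 248 against 34.3 to 68.0 CPM, with 1 of the 3 tested called higher and Ly6c2 and Chil3 at 0 in the Cre-negative libraries. Their part in the Colec12 result was not tested. The other 6 receptors tested differed by -1.70 to -0.17 on the log2 scale, Olr1 most (4.51, 2.20 and 2.41 against 19.0, 4.28 and 5.92 CPM, adjusted p = 0.469), and none was called. Of these 6, Scarb1 alone did not overlap, at 203.3, 404.9 and 331.2 CPM in the libraries labelled Cre-positive and 417.1, 599.1 and 530.8 CPM in the Cre-negative ones.

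**Figure D4:**
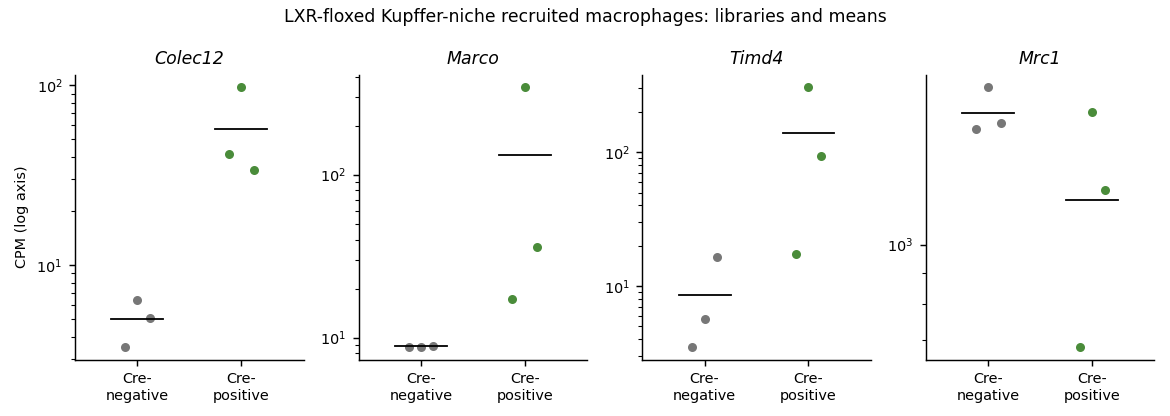
CPM on log axes of Colec12, Marco, Timd4 and Mrc1 in the LXR-floxed Kupffer-niche recruited macrophages, with 1 point per library and a bar at each mean. The 3 libraries labelled Cre-positive lie above the 3 Cre-negative ones for Colec12 (33.7 to 97.3 against 3.52 to 6.42 CPM), and Timd4 is above all Cre-negative libraries in each of them.

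Whole liver holds these receptors in hepatocytes, endothelium and macrophages together, so fewer cells of a type and less RNA per cell cannot be told apart. Scarb1, at 195 ± 25.9 TPM (n = 10) and 180.5 ± 27.1 TPM (n = 12) in DTR-negative and DTR-positive livers, was the most abundant receptor in both. None of the 8 receptors tested was called between the genotypes, where 0.0% of all genes were called (edgeR, 0 genes, with 477 at an unadjusted p under 0.05). DESeq2 and limma also called none of the receptors. Marco came nearest: it ran from 3.03 to 74.0 CPM (median 13.7) in DTR-negative and from 1.72 to 14.4 CPM (median 5.97) in DTR-positive livers. The groups overlapped, and the log2 difference was -1.63 ± 0.45 (unadjusted p = 0.00149, adjusted p = 0.9997). Mrc1, at 43.6 to 83.4 CPM against 55.8 to 131 CPM, differed by 0.34 ± 0.13 (unadjusted p = 0.0166), and Cd36 by 0.05 ± 0.28. Clec4f overlapped between the genotypes as well, at 1.37 to 118 CPM in DTR-negative and 3.37 to 140 CPM in DTR-positive livers. Cd36 and Msr1 were lowest in the same livers, DTR-negative 2 and 5 (136.2 and 191.0 CPM of Cd36, 17.9 and 22.3 of Msr1) and DTR-positive 1, 2 and 7 (118.1 to 150.4 and 13.5 to 22.5 CPM). These livers also had the 5 lowest sums of the 22 livers for stellate cell markers (629 to 1090 CPM, where the highest liver had 2240) and Ly6C-high monocyte markers (7.42 to 19.9 CPM, highest 40.1). Their hepatocyte marker sums were 116000 to 205000 CPM, 4 of them the highest of the 22. The part of these markers in the Cd36 and Msr1 levels was not tested.

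Across livers of a genotype each receptor was set against Clec4f, in 18 relations tested together by permutation (100000 resamples, two-sided) on log2(CPM + 1). In DTR-positive livers Lrp1 was related to Clec4f by rank, while Pearson's r missed the threshold (Pearson r = 0.801, adjusted permutation p = 0.0587; Spearman rho = 0.881, adjusted permutation p = 0.00522; n = 12), with r = 0.821 without the 2 livers farthest from the Clec4f median. On log2(TPM + 1) the relation was lost: r was 0.532 and rho 0.287 (adjusted permutation p = 0.223 and 0.734), and r was -0.06 without the farthest 2. In DTR-negative livers the same relation had r = -0.506 (rho = -0.37, adjusted permutation p = 0.352 and 0.588, n = 10), and the difference between genotypes was not tested. Marco (r = 0.649, rho = 0.77) and Colec12 (r = 0.714, rho = 0.77) were positive in DTR-negative livers, with adjusted permutation p = 0.174 and 0.158 for r and 0.0778 for rho in both. Without the farthest 2 livers r was 0.453 for Marco and 0.723 for Colec12. In DTR-positive livers they had r = -0.122 and 0.272 (rho = -0.119 and 0.175, adjusted permutation p = 0.682 to 0.798). With Timd4 in place of Clec4f, chosen after the data were seen, Marco had r = 0.896 (rho = 0.915) in DTR-negative and r = 0.879 (rho = 0.888) in DTR-positive livers, each with adjusted permutation p = 0.00306 for r and 0.00486 for rho, and with r = 0.952 and 0.849 without the farthest 2. Not every Kupffer cell marker gave this: with Cd5l the r of Marco was 0.275 in DTR-negative and -0.0967 in DTR-positive livers, and with Vsig4 it was 0.92 and 0.497. Timd4 itself was low, at 0.381 to 15.2 CPM (median 3.06) in DTR-negative and 0.115 to 3.44 CPM (median 0.883) in DTR-positive livers. Its log2 difference between genotypes was -2.02 ± 0.62, not called (edgeR, adjusted p = 0.9997).

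**Figure D5:**
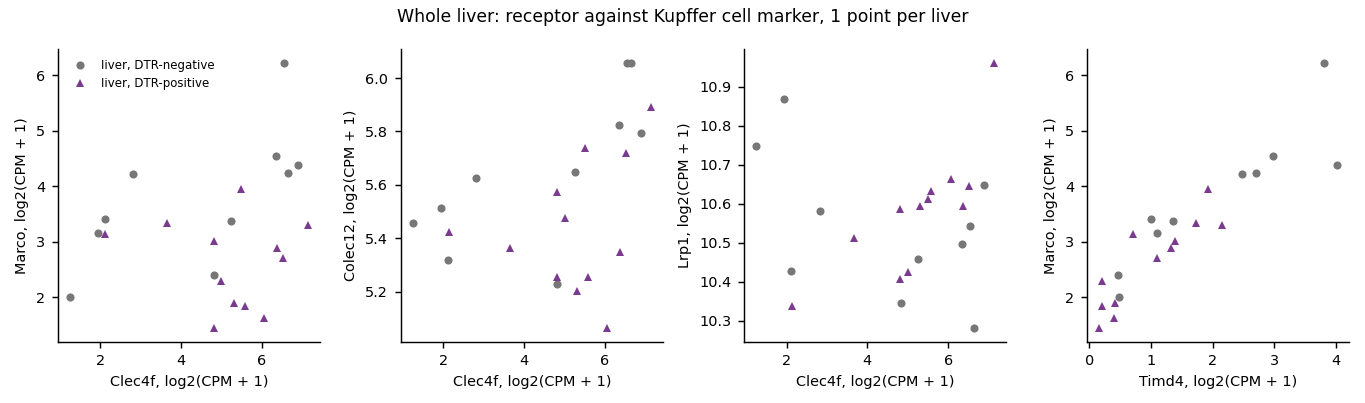
Whole livers, 1 point each, with the receptor against a Kupffer cell marker as log2(CPM + 1), grey circles for DTR-negative and purple triangles for DTR-positive livers. Marco follows Timd4 in both genotypes (r = 0.896 and 0.879), where Timd4 is low (median 3.06 and 0.883 CPM). Lrp1 against Clec4f in DTR-positive livers has r = 0.801 (adjusted permutation p = 0.0587), which is 0.532 on TPM (adjusted permutation p = 0.223).

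Other genes of lipid uptake were counted from lists. Of 15 other scavenger receptors tested in the population set, 5 were higher and 2 lower in NASH than in healthy Kupffer cells (median log2 difference 0.20), where 20.7% of all genes were called in either direction. Cd163, the haemoglobin receptor, fell from 5407 ± 277 to 68.6 ± 54.2 CPM (n = 2 each, log2 difference -6.30 ± 0.57, adjusted p = 4.21e-05). At week 30 it was at 71.3 ± 49.9 (n = 4) against 1942 ± 153 CPM (n = 3), and 6 of the 16 tested were higher and 3 lower, where 30.5% of all genes were called. Between Kupffer-niche recruited macrophages and NASH Kupffer cells only Stab2, a hyaluronan receptor also made by sinusoidal endothelium, was called (330 ± 43.8 against 598 ± 27.8 CPM, -0.86 ± 0.12), where 0.534% of all genes were called.

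Among 16 genes of the low-density lipoprotein receptor family and its regulators, 9 were higher and 1 lower at week 30 than at week 0 (30.5% of all genes called), and 3 and 2 in NASH against healthy Kupffer cells (20.7%). The sorting receptors Sorl1 and Sort1 led both: Sorl1 was at 173 ± 12.2 CPM at week 30 (n = 4) against 24.2 ± 8.53 at week 0 (n = 3), a log2 difference of 2.84 ± 0.23, and at 140 ± 47.0 in NASH against 25.3 ± 3.18 CPM in healthy Kupffer cells (n = 2 each), 2.47 ± 0.24. Sort1 differed by 4.18 ± 0.51 at week 30. Of 14 genes that handle fatty acids and lipids after uptake, 7 were higher and 1 lower at week 30 (30.5% of all genes called). The fatty acid-binding protein gene Fabp5 rose from 0.61 ± 0.178 to 18.9 ± 5.33 CPM (4.92 ± 0.65) and the transporter Slc27a1 from 30.8 ± 9.31 to 197 ± 28.5 CPM (2.68 ± 0.20).

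Of 11 transcription factors known to act on scavenger receptor genes, 6 were higher and 1 lower at week 30 (30.5% of all genes called). Pparg, which encodes PPAR gamma, rose from 16.7 ± 3.31 CPM at week 0 to 47.1 ± 6.08 CPM at week 30 (1.49 ± 0.23, adjusted p = 0.000185), and was higher in NASH than in healthy Kupffer cells (0.76 ± 0.19, adjusted p = 0.017). Maf fell from 923 ± 185 to 475 ± 58.0 CPM at week 30 (-0.96 ± 0.19). Rxra was at 154 ± 16.3 CPM in Ly6C-low against 648 ± 35.8 CPM in Kupffer-niche recruited macrophages (-2.07 ± 0.13), and Nr1h3 at 214 ± 47.8 against 591 ± 103 CPM (-1.47 ± 0.19), in a comparison where 5 of the 11 were lower and 1 higher and 33.3% of all genes were called. No gene of the 4 lists was called in the LXR-floxed set or in whole liver (46 and 54 of the 58 tested by edgeR).

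Over the 14 groups of sorted cells, the gene whose group means most resembled those of both Marco and Colec12 was Timd4 (Pearson r of mean log2(CPM + 1) = 0.98 and 0.941, among 15401 genes), and Marco and Colec12 resembled each other (r = 0.924). For Mrc1 the nearest genes were Sema6d (r = 0.992), Rgl1 (0.989) and Slc40a1, the iron exporter (0.987). For Cd36 they were Ncapg2 (0.97), 4931406C07Rik (0.967) and Palld (0.952), and for Msr1 Liph (0.974), Ispd (0.971) and Fam167a (0.97). The nearest genes of Scarb1 (Aatk, 0.892), Lrp1 (Mroh1, 0.916) and Vldlr (Wipf3, 0.929) were less alike, and that of Olr1 was Arsi (0.965). Between receptors, Cd36 and Mrc1 had r = 0.873, Msr1 and Mrc1 0.869, and Marco and Olr1 -0.916. These correlations describe 14 means, with CPM scaled over all sorted libraries together. Groups of a set differ in cell type, diet or Cre label, and may share preparation, which the labels do not state.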

How the data were processed

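RNA was sequenced from 57 libraries of sorted cells or whole liver. Whole-number read counts per transcript, deposited by the authors, were made with HOMER's analyzeRepeats on RefSeq transcripts of mm10, per the file headers, and the submitters' processing notes name STAR, HOMER and DESeq2, with versions not given in the sources used here. The deposited TPM table was used for levels between genes and for limma. Of the 40458 transcripts, 1 per symbol was kept, the one with the highest total count, which left 24941 genes. The members and gene lists were chosen with earlier results of these data known.

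Each set of libraries was fitted apart with edgeR 4.0.16 (R 4.3.3): filterByExpr (10 counts, 15 in total), TMM, quasi-likelihood test, Benjamini-Hochberg adjustment over all genes tested, called under 0.05. The scripts were tested on simulated data. CPM used TMM within a set, and over all sorted libraries together for the correlations between genes over the 14 groups. All 9 receptors are named, at most the 2 called genes of largest change per list and comparison, the genes of the gates and alleles, and the 3 genes most alike per receptor. Alternatives used limma 3.58.1 (pseudocount 1) and DESeq2 1.42.0, and numpy 2.4.6, pandas 2.3.3, scipy 1.17.1 and matplotlib 3.10.9 did the rest. Where a replicate was left out of a group of 2, the lone library was assumed to vary like the other groups. No 2 libraries of a group were alike within sampling noise (chi-square per degree of freedom 5.3 to 85.7 over 140 pairs). A floor covers counting error of the group at 0 and not of the group above it, so a fold above a floor is no lower bound. Intervals cover counting error only.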

Additional observations from a re-analysis of the deposited data

Results flagged for a closer look

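One whole liver stood apart for Vldlr: DTR-negative liver 7 was at 7.05 CPM, and its gap to the nearest of the other 9 was 0.547 of the group's range. Of 18 gene-by-group tests of this kind, chance flags about 1 in 20.

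Some receptors moved in opposite directions in the 2 comparisons of diet against control Kupffer cells, with every library on the other side by CPM, and the differences were not tested. Msr1 was above healthy in both NASH libraries of the population set, but differed from week 0 by -0.46 at week 20 and -0.46 at week 30 on the log2 scale. Colec12 was below healthy in NASH, but differed from week 0 by 0.34 at week 1, 1.45 at week 4, 1.34 at week 10 and 0.48 at week 30. Mrc1 fell in the NASH comparison, but differed by 0.44 at week 1 and 0.49 at week 10, and Scarb1, which also fell there, by 0.11 at week 4. None of these time course values passed the adjusted threshold. By deposited TPM, Msr1 overlapped between NASH (172.0 and 186.4) and healthy Kupffer cells (188.1 and 180.1). Scarb1 at week 4, Mrc1 at week 1 and Colec12 at weeks 1 and 30 overlapped week 0 by TPM.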

How the results depend on the processing

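Of 1493 single-gene values under alternatives, 1371 kept their direction or stayed uncalled, on the same side of the threshold, 62 lost a call, 54 gained one and 6 changed sign with a call. The 1371 include 35 uncalled values that changed sign, a number that leaves out sign changes of the correlations in whole liver. With 1 library left out, the receptors called numbered 1 to 3 for NASH against healthy Kupffer cells (5 with all), 1 for Kupffer-niche macrophages against NASH Kupffer cells, 5 for Ly6C-low against Kupffer-niche (6), 2 to 4 for Ly6C-low against Ly6C-high (5), 4 to 5 and 6 to 8 for Ly6C-high and Kupffer-niche against blood (5 and 8), 0 at weeks 1 and 4, 1 to 2 at week 10 (1), 2 to 4 at week 20 (4), 2 to 3 at week 30 (3), 2 to 4 for the slope (2) and 0 to 2 for the LXR-floxed set (1). With only the libraries of both groups in the fit they were 2 for Kupffer-niche against NASH Kupffer cells (Colec12 and Marco), 3 for Ly6C-low against Ly6C-high, 1 at week 1, 1 at week 4, 2 at week 10 and 5 at week 30. Without a filter they were 2 for Kupffer-niche against NASH Kupffer cells, 2 at week 10 and 2 in the LXR-floxed set, where DESeq2 gave 2 and limma 0. DESeq2 gave 2 at week 10 and 4 for the slope, limma 6 at week 30, and a slope per week 4. The cause was not tested.

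The labels do not say that a replicate number marks a shared animal or day. Same-numbered libraries deviated together with r = 0.567 for Kupffer-niche against NASH Kupffer cells, 0.518 for Ly6C-low against Kupffer-niche, 0.434 for Ly6C-low against Ly6C-high and 0.127 for NASH against healthy, but not against blood (r = -0.112 for Ly6C-high, -0.00964 for Kupffer-niche), and groups of 2 give 1 such value each. Where groups shared 3 or more numbers, no comparison had all r over 0.1, but these were between weeks, Cre labels or liver genotypes. They cannot tell whether numbers pair the populations of the NASH diet, where pairing was not tested. The main fits did not take the numbers as pairs. With the replicate block the slope was called for 1 receptor, Olr1 losing its call (0.59, adjusted p = 0.0674), and Olr1 was also not called at week 20 (2.25, 0.07) or week 30 (2.23, 0.0895). A crossed replicate block, added after seeing the data, gave 6 receptors called for Ly6C-high against blood, as did the block itself, Marco being the gain (0.0481 and 0.0409). With the block Colec12 was also called for NASH against healthy (-0.73, 0.0419).

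In whole liver 0 relations with Clec4f passed the threshold by r in either genotype. With Cd5l in its place 3 did in each, with r = 0.754 for Cd36, 0.875 for Msr1 and 0.726 for Olr1 in DTR-negative and 0.723 for Cd36, 0.803 for Msr1 and 0.71 for Vldlr in DTR-positive livers, of the other sign than with Clec4f except for Vldlr. Without the farthest 2 livers r was 0.931, 0.884 and 0.59, and 0.145, 0.349 and 0.516. With Vsig4, 2 passed in DTR-negative livers. With Timd4, added after seeing the data, 2 passed in each, Marco with r = 0.879 in DTR-positive livers. Over all genes, calls between Kupffer-niche macrophages and NASH Kupffer cells numbered 77, and 257 without a filter, 152 with the block, 269 with DESeq2 and 48 with both groups alone; in the LXR-floxed set they numbered 24, and 273, 112 and 232 under the first 3 and 2 with limma; with both groups alone they were 1492 at week 1 (2325) and 1228 at week 10 (2786).

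The LXR-floxed libraries were the shallowest, and groups of 2 gave calls that 1 library often decided. Vldlr and Olr1 had few counts in Kupffer cells.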
